A study of Mus musculus with 30 samples.

Results

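Apoe, Apoc1, Apoc2, Abca1 and Abcg1 encode 3 apolipoproteins and 2 membrane transporters that carry cholesterol out of cells. These 5 genes were followed through 18 RNA-seq libraries of mouse spleen B cells, by their names in both expression tables. All 5 are among the 26266 named genes of the young libraries' table and among the 22781 of the aged libraries' table. The genes were picked as a set with their values in these groups already known, so their levels and differences are described without a test. Tests were kept for genes outside the set.

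The study compared C57BL/6 mice that carry the Ikzf3-L161R missense knock-in in B cells with wild-type mice. Aiolos, the product of Ikzf3, is a DNA-binding regulator of lymphocyte development. The young groups were B cells of 2 to 3 months old homozygous mice (Ikzf3 fl/fl, n = 3) and of wild-type mice of that age (n = 3). The aged groups, from mice of 15 to 18 months, were CLL cells of leukaemic mutants (n = 5), non-CLL B cells of mutants (n = 4) and wild-type B cells (n = 3). CLL libraries 1, 2, 4 and 5 and non-CLL libraries 2, 4 and 5 are labelled heterozygous (Ikzf3 fl/+), and library 6 of either kind is labelled homozygous. By the series' description, the non-CLL cells come from the same mice as the CLL cells. The labels used here do not name the Cre driver. B cells were selected with magnetic beads, at a stated purity of at least 85% in the aged mice, and CLL cells were sorted as B220+CD5+. Comparisons with CLL cells are thus also comparisons of isolation as stated here, and its part was not tested. The labels do not say that each young library is a separate animal. Young wild-type library 3 differed from young wild-type libraries 1 and 2 in genes of the sex chromosomes (values below), so it came from another animal. The spread between wild-type libraries 1 and 2, and that among the homozygous libraries, may be technical.

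Apolipoprotein E coats lipoprotein particles and is the ligand by which receptors of the LDL receptor family take them up. Apoc1 and Apoc2 encode small exchangeable apolipoproteins: the Apoc2 product is the cofactor that lipoprotein lipase needs, and the Apoc1 product inhibits lipid transfer and particle uptake. Abca1 loads cholesterol and phospholipid onto lipid-poor apolipoproteins, and Abcg1 moves cholesterol to particles that already carry lipid. All 5 genes are textbook targets of the liver X receptors (LXR), oxysterol-sensing nuclear receptors. In the spleen, macrophages are well known for high Apoe and for exporting the cholesterol of the cells they engulf.

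Both tables give TPM, an abundance per transcript length that can be compared between genes of a library, and they were never tested together. B cell markers were high throughout: Cd79a lay between 2706 and 3141 TPM in young libraries, and Ms4a1 between 617 and 4645 TPM in aged ones. In the aged table many genes that B cells should not use carry a value. The median over 1106 olfactory receptor genes, used here as the background of a library, was 1.34, 2.71, 1.08, 2.55 and 9.66 TPM in CLL libraries 1, 2, 4, 5 and 6. It was 8.52, 8.06, 7.16 and 9.24 TPM in non-CLL libraries 2, 4, 5 and 6, against 0, 0.745 and 0 TPM in aged wild-type libraries 1 to 3. In every young library it was 0. The median log2 change over all tested genes was 0.18 for young homozygous against wild-type cells, 0.93 for CLL against aged wild-type cells, -0.77 for CLL against non-CLL cells and 1.65 for non-CLL against aged wild-type cells. The differences of the 5 genes stand against these shifts of the whole table. Aged wild-type library 2 stood apart from the other aged libraries: it had 17.4 TPM of Ddx3y, a gene of the Y chromosome, beside 38.1 TPM of Xist, the RNA of the inactive X chromosome of females, while no other aged library had more than 0.135 TPM of Ddx3y. It also had 620.2 TPM of 8 summed T cell markers, against 8.08 and 14.2 TPM in aged wild-type libraries 1 and 3. CLL library 4 differed in Xist, with 4.10 TPM beside 0 TPM of Ddx3y, while the other aged libraries had 38.1 to 70.5 TPM of Xist.

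Apoc2, Apoc1 and Apoe lie in a cluster on chromosome 7, within 29.7 kb (19671579 to 19701310, GRCm38.p6, the assembly of mm10). Apoc4 lies between Apoc2 and Apoc1. Apoc2 covers 19671579 to 19677941, Apoc1 19689480 to 19692659 and Apoe 19696244 to 19701310. A read-through transcript, Gm44805, overlaps Apoc2 and the adjoining Apoc4. Gm44805 is not among the named genes of either table. How reads of the overlap were assigned is not known, and the values of Apoc2 are uncertain to that extent. Abca1 lies on chromosome 4 (53030789 to 53159988) and Abcg1 on chromosome 17 (31057694 to 31117984).

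LXR binds DNA as a heterodimer with RXR, at direct repeats of a short half-site. RefSeq promoter windows of GRCm38.p6 were found for 3 of the 5 genes (Apoe, Apoc2 and Abca1), and the 250 bases before each start were searched on both strands for 2 copies of AGGTCA in the same direction with any 4 bases between them. Abca1 had the closest match, with 9 of the 12 fixed letters, beginning at position -67 relative to the start and reading on the opposite strand. It is shown because Abca1 is the classical LXR target and the stretch lies directly before its start. Capitals mark the 16 bases aligned with the repeat (chr4:53159940-53159969, minus strand, 5′ to 3′):
Abca1: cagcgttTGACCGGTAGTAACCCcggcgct
Among all 32851 windows of this length, 18.5% held a match at least as close. The best matches of Apoe and Apoc2 had 8 letters, a level that 70.6% of all windows reached. These matches describe the letters only.

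Apoe was the most abundant of the 3 apolipoprotein genes in all 18 libraries. In young homozygous libraries 1 to 3 it had 357, 462 and 347 TPM, against 687, 753 and 369 TPM in young wild-type libraries 1 to 3. Wild-type libraries 1 and 2 stood above all others, and wild-type library 3 lay among the homozygous ones, so the groups overlapped. The means were 389 ± 64.1 TPM in homozygous libraries and 603 ± 205 TPM in wild-type libraries (SD, n = 3 each), a log2 change of -0.58 (SE 0.35) on the log2(TPM + 1) scale that is used throughout.

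In the aged table Apoe spanned the widest range in CLL cells. CLL libraries 1, 2, 4, 5 and 6 had 129, 439.6, 229, 637 and 1019 TPM. Non-CLL libraries 2, 4, 5 and 6 had 849.9, 799, 475 and 475 TPM, against 136, 111 and 172 TPM in aged wild-type libraries 1 to 3. All 4 non-CLL libraries lay above all 3 wild-type libraries, while the CLL libraries reached from within the wild-type range to above the non-CLL range. The means were 491 ± 354 TPM in CLL cells (SD, n = 5), 649.8 ± 203 TPM in non-CLL cells (n = 4) and 139.7 ± 30.4 TPM in aged wild-type cells (n = 3). The log2 change was 1.48 (SE 0.72) for CLL against wild-type, -0.70 (SE 0.63) for CLL against non-CLL and 2.18 (SE 0.31) for non-CLL against wild-type cells. Background is small beside these levels: with it subtracted, Apoe averaged 487 ± 351 TPM in CLL, 642 ± 203 TPM in non-CLL and 139 ± 30.8 TPM in wild-type cells. CLL library 6, the homozygous one, had the highest Apoe level of the aged table and also the highest background of the CLL group. Without it the CLL against wild-type log2 change was 1.13, and without CLL library 1 it was 1.87. Without aged wild-type library 2 it was 1.33, and that of non-CLL against wild-type cells was 2.02.

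**Figure D1:**
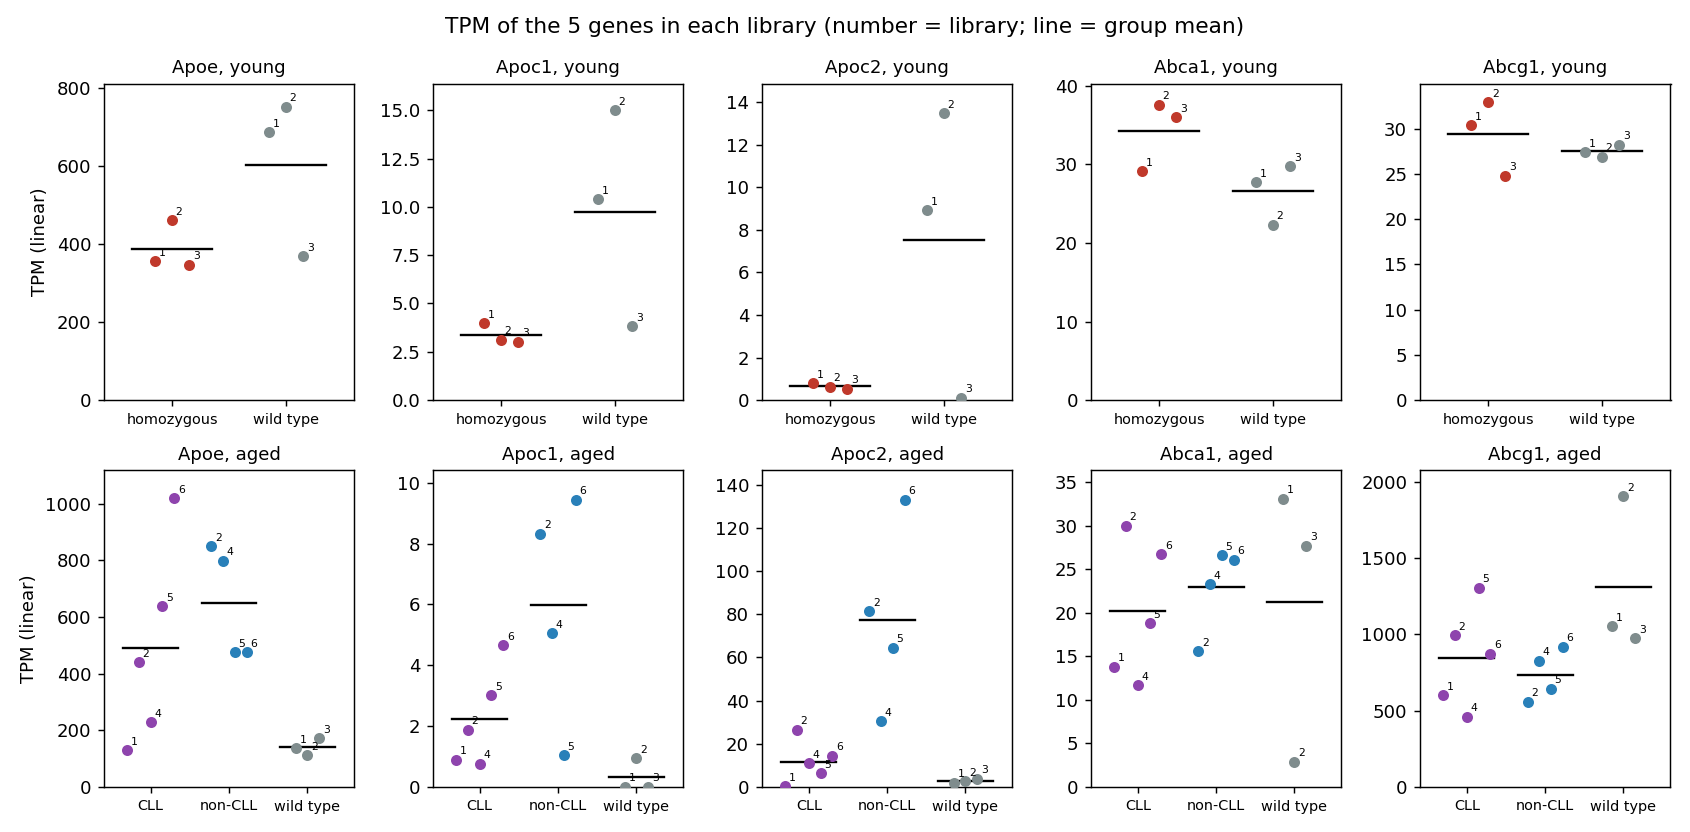
TPM of Apoe, Apoc1, Apoc2, Abca1 and Abcg1 (linear axes from 0) in every library of the young table (top: homozygous, then wild type) and the aged table (bottom: CLL, non-CLL, wild type); each point is 1 library with its number, and the line is the group mean. Young wild-type libraries 1 and 2 stand above the rest for the 3 apolipoprotein genes, and the 4 non-CLL libraries lie above the 3 aged wild-type ones for Apoe, Apoc1 and Apoc2.

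Apoc1 was low everywhere. Young homozygous libraries had 3.99, 3.13 and 3.03 TPM, against 10.4, 15.0 and 3.83 TPM in young wild-type libraries 1 to 3. The pattern was that of Apoe, with wild-type libraries 1 and 2 high and library 3 inside the homozygous range. Means were 3.38 ± 0.525 TPM in homozygous libraries and 9.75 ± 5.63 TPM in wild-type libraries (SD, n = 3 each), and the log2 change was -1.14 (SE 0.52).

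Aged CLL libraries 1, 2, 4, 5 and 6 had 0.899, 1.88, 0.755, 3.01 and 4.66 TPM of Apoc1. Non-CLL libraries 2, 4, 5 and 6 had 8.32, 5.06, 1.04 and 9.44 TPM, and wild-type libraries 1 to 3 had 0, 0.934 and 0 TPM. Apoc1 exceeded the background of its own library in 1 CLL, 1 non-CLL and 1 wild-type library. The log2 change of 2.24 (SE 0.69) for non-CLL against wild-type cells was -0.02 after background subtraction, that of 1.24 (SE 0.49) for CLL against wild-type cells was 0.03, and that of -1.01 (SE 0.59) for CLL against non-CLL cells was 0.04. A difference of Apoc1 between the aged groups was therefore not detectable above background.

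Apoc2 was close to 0 in young homozygous cells and uneven in young wild-type cells. Homozygous libraries had 0.794, 0.626 and 0.536 TPM, against 8.93, 13.5 and 0.117 TPM in wild-type libraries 1 to 3. The wild-type group held both the highest values and the lowest one. With too few libraries at 1 TPM it did not pass the filter on low values, and its log2 change of -1.72 (SE 1.16) rests on wild-type libraries 1 and 2.

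In aged mice Apoc2 was the gene of the set that set non-CLL cells furthest from the other groups. Non-CLL libraries 2, 4, 5 and 6 had 81.5, 30.3, 64.4 and 133 TPM. CLL libraries 1, 2, 4, 5 and 6 had 0.385, 26.5, 11.0, 6.43 and 14.4 TPM, and aged wild-type libraries had 1.85, 2.56 and 3.81 TPM. Every non-CLL library exceeded every CLL and every wild-type library, and the CLL range enclosed the wild-type one. The CLL mean was 11.8 ± 9.79 TPM (SD, n = 5), the non-CLL mean 77.4 ± 42.9 TPM (n = 4) and the wild-type mean 2.74 ± 0.992 TPM (n = 3). The log2 change was -2.97 (SE 0.92) for CLL against non-CLL, 4.24 (SE 0.55) for non-CLL against wild-type and 1.27 (SE 0.99) for CLL against wild-type cells. With the background subtracted, Apoc2 still averaged 69.1 ± 42.3 TPM in non-CLL cells, against 8.47 ± 9.27 TPM in CLL and 2.49 ± 1.14 TPM in wild-type cells. It lay above background in 4 of 5 CLL, 4 of 4 non-CLL and 3 of 3 wild-type libraries. Leaving out 1 library at a time kept the CLL against non-CLL difference between -3.38 and -2.31. Without aged wild-type library 2 the log2 change was 1.25 for CLL and 4.22 for non-CLL against wild-type cells.

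Several markers of dendritic cells and of T cells were also lower in CLL than in non-CLL cells. Siglech, a receptor of plasmacytoid dendritic cells, ranged over 1.32 to 18.1 TPM in CLL libraries, 137 to 784 TPM in non-CLL libraries and 0 to 126 TPM in aged wild-type libraries. The summed level of the 8 listed dendritic cell markers was 15.2 to 155 TPM in CLL, 382 to 1555 TPM in non-CLL and 52.9 to 245 TPM in aged wild-type libraries. By limma, 5 of the 8 were lower in CLL than in non-CLL cells, beside 5.02% of all genes, and 3 of 8 were lower with the background subtracted. Between non-CLL and wild-type cells 4 of the 8 were higher in non-CLL cells, a share near the 55.8% of all genes, and with the background subtracted 0 passed (3 at an unadjusted p under 0.05). Between CLL and wild-type cells the markers did not have the direction of Apoc2: their median log2 change was -0.34, and none passed (2 lower at an unadjusted p under 0.05).

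The 8 T cell markers summed to 10.5 to 383 TPM in CLL (median 48.4 TPM), 129 to 391 TPM in non-CLL (median 242 TPM) and 8.08 to 620.2 TPM in aged wild-type libraries (median 14.2 TPM), so that the medians had the order of Apoc2. By limma, 3 of the 8 were lower in CLL than in non-CLL cells (2 of 5 tested with the background subtracted). In non-CLL against wild-type cells 5 of the 8 were higher, beside 55.8% of all genes, and with the background subtracted 0 of 6 passed (3 higher at an unadjusted p under 0.05). Single libraries departed from this order, as aged wild-type library 2 joined the highest dendritic cell and T cell sums of its group (245 and 620.2 TPM) with 2.56 TPM of Apoc2, and CLL library 1 joined 383 TPM of T cell markers with 0.385 TPM. The part of these cells in the Apoc2 difference was not tested, nor was that of the way the CLL cells were isolated. In bulk RNA, fewer cells of a type and less RNA per cell cannot be told apart.

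Abca1 stayed within a narrow band in young cells. Homozygous libraries had 29.1, 37.6 and 36.0 TPM, against 27.7, 22.3 and 29.8 TPM in wild-type libraries, and the groups overlapped only in that homozygous library 1 lay just below wild-type library 3. Means were 34.2 ± 4.53 TPM in homozygous libraries and 26.6 ± 3.84 TPM in wild-type libraries (SD, n = 3 each), a log2 change of 0.35 (SE 0.16).

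In the aged table, CLL libraries 1, 2, 4, 5 and 6 had 13.8, 30.0, 11.7, 18.8 and 26.7 TPM of Abca1. Non-CLL libraries 2, 4, 5 and 6 had 15.6, 23.3, 26.6 and 26.1 TPM, and wild-type libraries 1 to 3 had 33.1, 2.89 and 27.7 TPM. Wild-type library 2 was the lowest value of the table. Wild-type libraries 1 and 3 lay above all non-CLL libraries, while the CLL range overlapped with both other groups. Log2 changes were 0.36 (SE 0.80) for CLL and 0.59 (SE 0.86) for non-CLL against wild-type cells. Without wild-type library 2 they were -0.64 for CLL and -0.42 for non-CLL cells, so that library, the one with Ddx3y, alone turned the direction. Between CLL and non-CLL cells the log2 change was -0.23 (SE 0.32), and with the background subtracted 0.20.

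Abcg1 differed least of the 5 genes between the young groups. Homozygous libraries had 30.4, 32.9 and 24.8 TPM, against 27.4, 26.9 and 28.2 TPM in wild-type libraries, whose values lay inside the homozygous range. Means were 29.4 ± 4.12 TPM in homozygous libraries and 27.5 ± 0.674 TPM in wild-type libraries (SD, n = 3 each). The log2 change was 0.08 (SE 0.12), and -0.11 when libraries were rescaled so that the median gene did not change.

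Abcg1 was the most abundant of the 5 genes in most aged libraries. CLL libraries 1, 2, 4, 5 and 6 had 601, 994, 459, 1304 and 871 TPM, non-CLL libraries 2, 4, 5 and 6 had 557, 826, 643 and 917 TPM, and wild-type libraries 1 to 3 had 1052, 1902 and 975 TPM. All 4 non-CLL libraries lay below all 3 wild-type ones, while CLL libraries 2 and 5 reached the wild-type range. Means were 846 ± 332 TPM in CLL (SD, n = 5), 736 ± 165 TPM in non-CLL (n = 4) and 1309.5 ± 514 TPM in wild-type cells (n = 3). The log2 change was -0.66 (SE 0.42) for CLL and -0.79 (SE 0.32) for non-CLL against wild-type cells, and 0.13 (SE 0.33) between CLL and non-CLL cells, which was -0.05 without CLL library 5. Without aged wild-type library 2, which had the highest level, the log2 change was -0.35 for CLL and -0.49 for non-CLL against wild-type cells. The levels in the young table are far lower, but the tables were made separately and no age difference was computed.

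The order of the group medians in the aged table was the same for the 3 apolipoprotein genes, with non-CLL cells highest, CLL cells next and wild-type cells lowest. The mean background had this order too (8.25, 3.47 and 0.248 TPM), and Apoc1 exceeded it in only 1 library of each group. For both transporters wild-type cells had the highest median. Neighbours in these orders overlapped except non-CLL and CLL cells for Apoc2. Non-CLL and wild-type cells did not overlap for Apoe, Apoc1 and Apoc2, which were higher in non-CLL cells, and for Abcg1, which was lower. Of all 22150 genes tested in that comparison, 53.7% had all non-CLL above all wild-type libraries and 2.33% had all below. Between CLL and non-CLL cells, 1 of the 5 genes (Apoc2) had all CLL below all non-CLL libraries, as had 7.51% of all genes, with 1.17% the other way round. None of the 5 separated the groups between young homozygous and wild-type cells, where 44.5% of genes lay wholly higher and 16.9% wholly lower in homozygous cells. None separated CLL from wild-type cells, where these shares were 29.0% and 2.55%. As the genes were chosen with these values known, nothing is read from these counts.

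**Figure D2:**
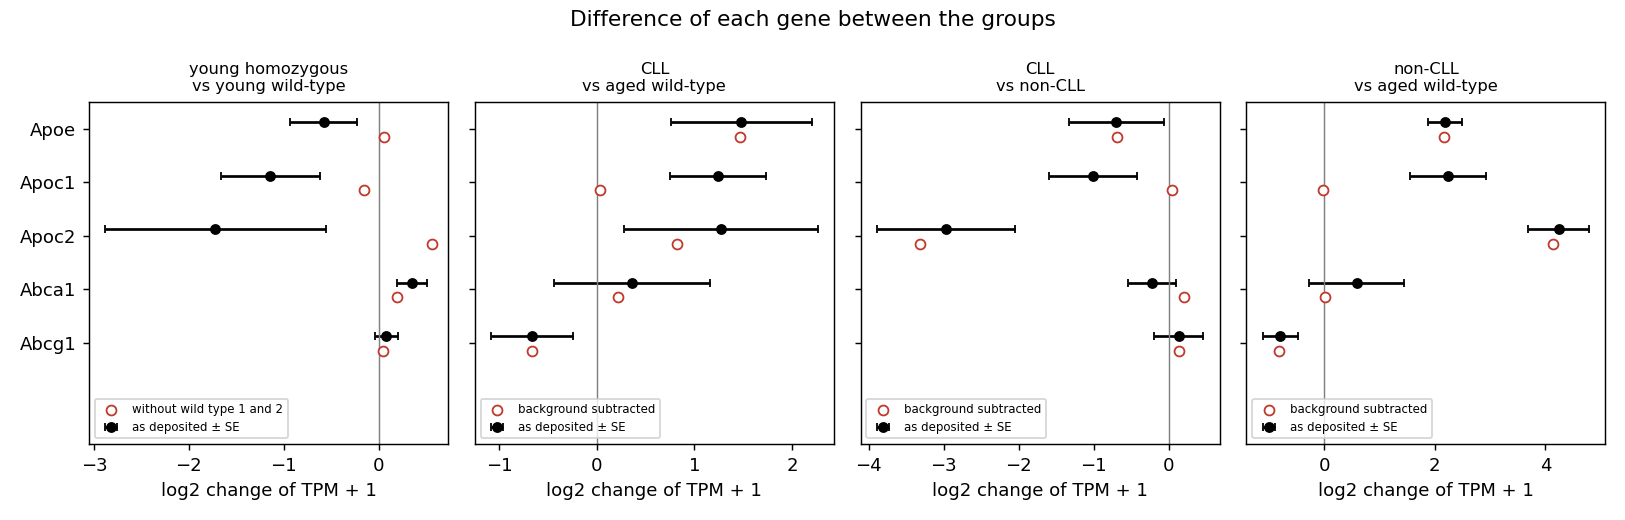
Log2 change of TPM + 1 for each of the 5 genes in the 4 comparisons (filled points, with the standard error as bars), and beside it the value without young wild-type libraries 1 and 2 (first panel) or with the olfactory receptor background subtracted (other panels), as open points. The 3 negative values of the first panel move to 0.06, -0.15 and 0.56, Apoc1 moves to about 0 in all aged comparisons, and Apoc2 keeps its distance from 0 between non-CLL cells and either other group.

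CLL and non-CLL cells with the same number were set side by side within mice 2, 4, 5 and 6. Apoc2 was lower in the CLL cells of 4 of 4 mice, with log2 differences of -1.58, -1.39, -3.14 and -3.12. The background was not subtracted here, and the median log2 change of all genes between these groups was -0.77. The share of all genes lower in every mouse was not computed, so how unusual this is stays unknown. Apoe had no common direction, with differences of -0.95 and -1.80 in mice 2 and 4 and of 0.42 and 1.10 in mice 5 and 6. Apoc1 was lower in the CLL cells of 3 of 4 mice, at levels near background. Abca1 and Abcg1 were each lower in CLL cells in 2 of 4 mice, and in mouse 6, the homozygous one, they differed by 0.03 and -0.07. That mouse had the highest Apoe level in CLL cells and the highest Apoc2 level in non-CLL cells.

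**Figure D3:**
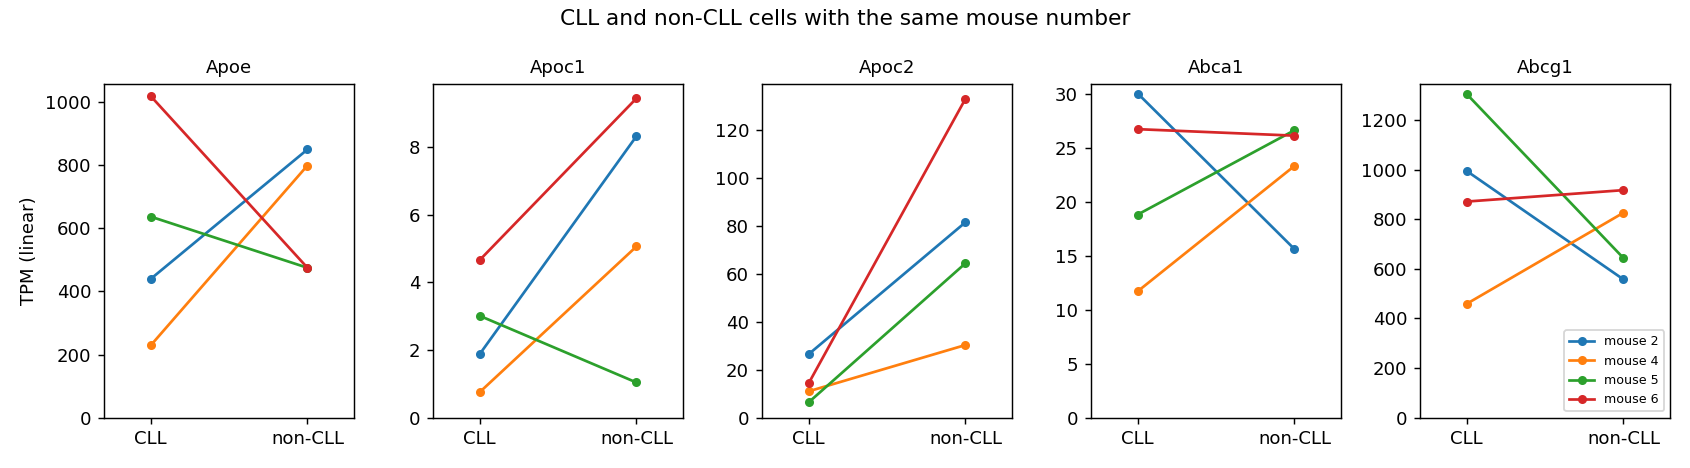
TPM (linear axes from 0) of the 5 genes in CLL cells and in non-CLL cells of the 4 mice with both libraries; each line joins the 2 libraries of 1 mouse. Apoc2 is lower in the CLL cells of all 4 mice, while the lines of Apoe, Abca1 and Abcg1 cross.

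In the young table Apoe moved together with macrophage genes. The 8 defining macrophage genes (Adgre1, Csf1r, C1qa, C1qb, C1qc, Vcam1, Spic and Cd163) summed to 313, 539 and 238 TPM in homozygous libraries 1 to 3, against 1021, 1287 and 463 TPM in wild-type libraries 1 to 3. Each of the 8 was highest in wild-type libraries 1 and 2. Csf1r, the receptor of macrophage colony stimulating factor, had 44.4, 77.0 and 33.2 TPM in homozygous libraries, against 152, 184 and 60.6 TPM in wild-type libraries. C1qa, a complement component made by macrophages, had 49.8, 88.8 and 37.0 TPM in homozygous libraries, against 205, 249 and 86.4 TPM in wild-type libraries.

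Over all 23 macrophage markers the sum was 513 to 1174 TPM in homozygous libraries and 1089.8 to 4759 TPM in wild-type libraries. By limma, 5 of the 22 tested markers were lower in homozygous cells (11 at an unadjusted p under 0.05) and 0 were higher at either level, with a median log2 change of -1.23, while 12.6% of all genes were lower and 38.4% higher. Without wild-type libraries 1 and 2 the count was 1 of 22 lower, with a median of -0.40. Among the defining genes only C1qb passed (log2 change -1.73, SE 0.52, limma adjusted p = 0.0463). Lyz2, the lysozyme of myeloid cells, had 163, 129 and 58.2 TPM in homozygous libraries and 1443, 2330.0 and 222 TPM in wild-type libraries. The neutrophil gene S100a9 averaged 51.2 ± 29.9 TPM in homozygous libraries and 846 ± 528 TPM in wild-type libraries (SD, n = 3 each). Wild-type libraries 1 and 2 were also the only young libraries with Xist, at 80.9 and 63.1 TPM, against at most 0.0567 TPM in the other 4. Their Ddx3y was at most 0.00866 TPM, against 54.3 TPM in wild-type library 3 and 107 to 148 TPM in homozygous libraries. With wild-type libraries 1 and 2 both left out, wild-type library 3 stood alone and was assumed to vary like the homozygous ones. The log2 change was then 0.06 for Apoe, -0.15 for Apoc1 and 0.56 for Apoc2. Beyond that, the part of myeloid cells and of sex in the young difference was not tested.

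Apoe and macrophage genes did not keep 1 ratio. Per TPM of the 8 defining genes, young homozygous libraries had 0.858 to 1.46 TPM of Apoe and young wild-type libraries 0.585 to 0.797 TPM. In the aged table, where Adgre1 is not listed, the ratio to the other 7 defining genes was 2.84 to 12.4 in CLL, 5.59 to 13.8 in non-CLL and 0.720 to 3.17 in wild-type libraries. CLL library 6, with 1019 TPM of Apoe, had 1 of these 7 genes above its background. Of all 22 macrophage markers of the aged table, 10 lay above background in that library, with a sum of 535 TPM. C1qa had 0 to 5.81 TPM in CLL libraries, 0.521 to 7.62 TPM in non-CLL libraries and 0.560 to 29.9 TPM in aged wild-type libraries, and was 0 in CLL library 1. C1qc was 0 in 1 CLL and 1 non-CLL library. Aged wild-type library 3 had the highest sum of the 7 genes (238 TPM) together with 172 TPM of Apoe. The full macrophage list summed to 521 to 1526 TPM in CLL, 349.5 to 786 TPM in non-CLL and 107 to 657 TPM in aged wild-type libraries. The highest of these sums belonged to CLL library 2, which also held 3289.7 TPM of the neutrophil granule gene Ngp and 439.6 TPM of Apoe.

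Markers of other spleen cells were also present. In the young table the highest gene of each list was Itgax for dendritic cells (18.9 ± 3.05 TPM in homozygous libraries, 22.0 ± 3.64 TPM in wild-type libraries), Cd8a for T cells (8.67 ± 2.30 TPM in homozygous libraries, 8.44 ± 3.23 TPM in wild-type libraries), Pecam1 for stroma and vessels (137 ± 8.81 TPM in homozygous libraries, 127 ± 11.5 TPM in wild-type libraries) and Hba-a1 for red cells (33.3 ± 20.6 TPM in homozygous libraries, 43.2 ± 13.7 TPM in wild-type libraries; SD, n = 3 each). Cd8a did not follow the rest of its list: the 8 T cell markers summed to 12.9 to 21.2 TPM in homozygous and 17.0 to 41.5 TPM in wild-type libraries, with a median log2 change of -0.89 and 2 of 7 tested lower by limma. In the aged table the T cell gene Cd3g had 3.39 to 362 TPM in CLL (median 26.8 TPM), 24.5 to 222 TPM in non-CLL (median 134 TPM) and 0 to 596 TPM in wild-type libraries (median 3.56 TPM). Pecam1 lay between 26.5 and 217 TPM over all 12 aged libraries.

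**Figure D4:**
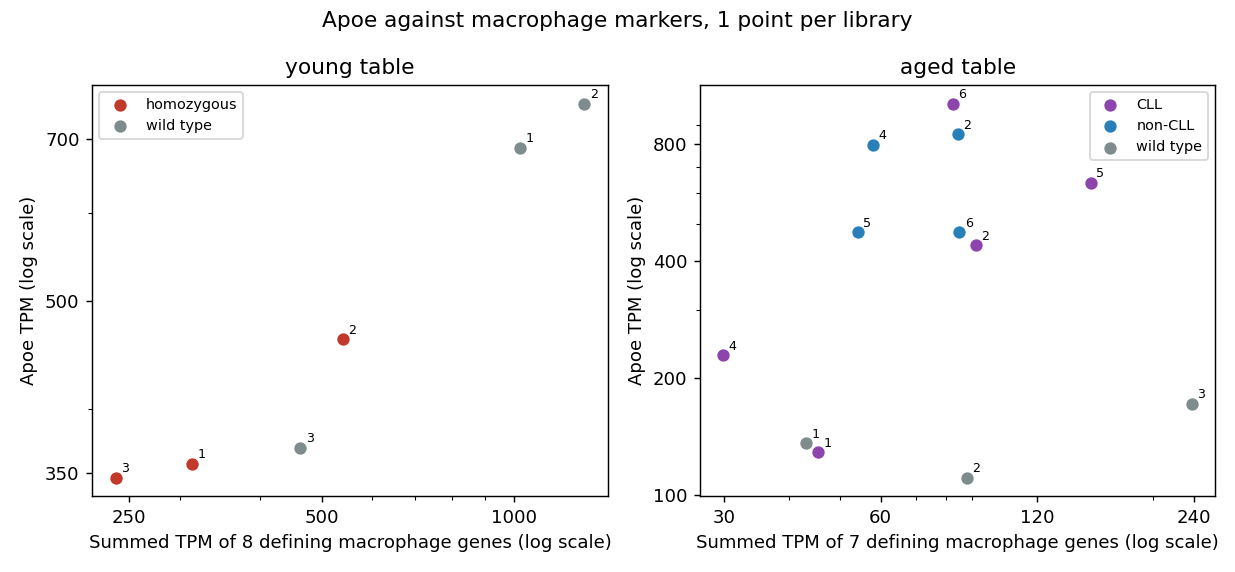
Apoe TPM against the summed TPM of the defining macrophage genes (8 in the young and 7 in the aged table; both axes on a log scale), 1 point per library with its number, coloured by group. In the young table the 2 wild-type libraries at the upper right have the highest values of both, while in the aged table the library with the highest macrophage sum has 172 TPM of Apoe and the non-CLL libraries reach 475 to 849.9 TPM at sums of 54.2 to 85.0 TPM.

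The genes whose levels followed each of the 5 most closely were ranked by Pearson's r of log2(TPM + 1) over the libraries of a table, as a description. Over the 6 young libraries Plxnb2 (0.999), Cd302 (0.998) and Scarb1 (0.998), the HDL receptor gene, came first for Apoe. Of the defining macrophage genes, Csf1r (0.974) and Vcam1 (0.974) came highest, at ranks 33 and 35. The others lay between rank 64 (Adgre1, 0.962) and rank 245 (Cd163, 0.91). Prdx5 (0.998), Csf2rb (0.994) and Pdk3 (0.994) followed Apoc1. Zfp691 (0.993), Nup188 (0.992) and Snord95 (0.988) followed Abca1, and Slc16a1 (0.965), Ighv10-1 (0.961) and Isca2 (0.953) followed Abcg1. The young libraries share the contrast between wild-type libraries 1 and 2 and the rest.

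Over the 12 aged libraries Scgb1a1 (0.972), Gm16023 (0.959) and Ehbp1 (0.958) followed Apoe, and none of them exceeded 16.5 TPM in any library, while Csf1r had an r of 0.232 and C1qa of 0.166. Morn2 (0.949), Mir1971 (0.941) and 5031425E22Rik (0.934) followed Apoc2. A130010J15Rik (0.95), Stap1 (0.941) and Ibtk (0.928) followed Abca1, and Rrbp1 (0.863), Aasdh (0.856) and Ccdc47 (0.826) followed Abcg1. Apoe and Apoc2, of the same cluster, had an r of 0.741. The aged libraries share a background that differs between the groups.

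The genes around the apolipoprotein cluster were picked by position after the tables were seen. Tomm40, a subunit of the mitochondrial import pore whose gene adjoins Apoe, had 39.6 ± 5.77 TPM in young homozygous and 44.4 ± 2.62 TPM in young wild-type cells (SD, n = 3 each). In aged mice Tomm40 had 30.9 ± 13.3 TPM in CLL, 26.9 ± 6.76 TPM in non-CLL and 25.7 ± 4.35 TPM in wild-type cells. Its log2 change was -0.17 for young homozygous against wild-type cells, 0.15 for CLL against aged wild-type, 0.11 for CLL against non-CLL and 0.04 for non-CLL against aged wild-type cells, and Tomm40 passed in no comparison (limma adjusted p between 0.221 and 0.919). Clptm1, on the Apoc2 side, passed in no comparison either. Relb, an NF-kB subunit gene beyond it, was lower in non-CLL than in aged wild-type cells (52.6 ± 18.2 TPM against 96.5 ± 19.1 TPM, log2 change -0.92, SE 0.32, limma adjusted p = 0.031). Bcam was higher in non-CLL than in aged wild-type cells (log2 change 2.37, limma adjusted p = 7.54e-05), at 4.97 ± 0.943 TPM, under the background of those libraries.

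For the wider pathway, 77 further genes were listed: 13 other apolipoproteins, 16 other ABCA and ABCG transporters, 16 LXR receptors, partners and targets, 14 lipoprotein receptors and 18 genes of cholesterol handling inside the cell. In young cells, 12 of the 48 tested genes were higher and 6 lower in homozygous than in wild-type cells. Of all genes tested by limma, 51.0% passed at an adjusted p under 0.05, with 38.4% higher and 12.6% lower. The median log2 change of the 48 genes was -0.04, against 0.18 for all genes. After rescaling by the median gene, 7 of the 48 were higher and 11 lower. Without wild-type libraries 1 and 2, 5 were higher and 3 lower.

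Among the young genes with the largest changes, Gramd1a, which encodes a carrier of cholesterol from the plasma membrane to the endoplasmic reticulum, was higher in homozygous cells, with 247 ± 30.1 TPM against 125 ± 6.10 TPM in wild-type cells (SD, n = 3 each). Its log2 change was 0.96 (SE 0.10, limma adjusted p = 0.000296). Soat1, which encodes the enzyme that esterifies cholesterol for storage, was higher by 0.87 (SE 0.14, limma adjusted p = 0.0017), with 43.7 ± 8.29 TPM in homozygous libraries and 23.3 ± 2.22 TPM in wild-type libraries. Its close relative Soat2 was lower by the test (log2 change -0.56, limma adjusted p = 0.0395), with 0.651 ± 0.305 TPM in homozygous libraries and 1.40 ± 0.208 TPM in wild-type libraries. This call was lost without the filter on low values and with a replicate block (limma adjusted p = 0.0514). It was also lost without wild-type library 1, 2 or 3 or homozygous library 2 or 3, with limma adjusted p up to 0.144. Nr1h2, which encodes LXR beta, had 132 ± 6.69 TPM in homozygous libraries and 90.6 ± 4.57 TPM in wild-type libraries and was higher (log2 change 0.53, limma adjusted p = 0.000876). Fasn, the fatty acid synthase gene, was higher (log2 change 0.64, limma adjusted p = 0.00189). So was the lipid transporter gene Abca7, by 0.53 (limma adjusted p = 0.00135).

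Lower in young homozygous cells was the LXR target Smpdl3a, a phosphodiesterase gene, with 19.0 ± 0.992 TPM against 47.5 ± 14.1 TPM in wild-type cells (log2 change -1.24, SE 0.21, limma adjusted p = 0.00387). Pltp, which encodes the plasma phospholipid transfer protein, was lower by the same test with 14.3 ± 0.976 TPM in homozygous libraries and 21.2 ± 1.11 TPM in wild-type libraries (log2 change -0.53, limma adjusted p = 0.00183). Npc2, a carrier of cholesterol in lysosomes (log2 change -0.55, limma adjusted p = 0.0295), the scavenger receptor gene Cd36 (-0.48, limma adjusted p = 0.00773) and the sterol carrier gene Stard5 (-0.44, limma adjusted p = 0.00292) were lower as well. The call of Npc2 was lost without the filter on low values. It was also lost without wild-type library 1 or homozygous library 1, 2 or 3, with limma adjusted p up to 0.0989. Without wild-type libraries 1 and 2 together, which left 1 wild-type library, 5 of these genes no longer passed and the other 6 genes named here did. The log2 changes of the 5 were then 0.73 for Soat1 (limma adjusted p = 0.0540), 0.46 for Fasn (0.0511), -0.69 for Soat2 (0.157), -0.20 for Npc2 (0.308) and -0.39 for Stard5 (0.0681). By list, the LXR receptors and targets had 4 higher and 2 lower of 16 tested, the transporters 3 higher and none lower of 7, the receptors 2 higher and 1 lower of 9, the intracellular genes 3 higher and 3 lower of 13, and the apolipoproteins none of 3.

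Between CLL and non-CLL cells, 2 of the 77 genes were higher and 6 lower in CLL cells, and over all genes 0.744% were higher and 5.02% lower, 5.77% in all. The median log2 change of the 77 was -1.10, against -0.77 for all genes. Cd36 was higher in CLL cells, with 113 ± 37.1 TPM (SD, n = 5) against 31.9 ± 10.1 TPM in non-CLL cells (n = 4), a log2 change of 1.78 (SE 0.30, limma adjusted p = 0.000955). Abca3, which encodes a phospholipid transporter, had 66.1 ± 23.4 TPM in CLL and 27.7 ± 8.11 TPM in non-CLL cells and was higher (log2 change 1.20, limma adjusted p = 0.0291), but not without CLL library 2 or 4 or non-CLL library 4 or 5, with adjusted p up to 0.0745.

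Pltp was lower in CLL than in non-CLL cells, at 8.35 ± 4.25 TPM against 42.5 ± 11.8 TPM (log2 change -2.32, SE 0.40, limma adjusted p = 0.00109, and 0.00804 with the background subtracted). Cyp27a1, which encodes the sterol 27-hydroxylase, was lower in CLL cells (log2 change -2.56, SE 0.56, limma adjusted p = 0.013). So was Lrp8, a receptor gene for apolipoprotein E and reelin (log2 change -2.55, SE 0.52, limma adjusted p = 0.00585). Both passed with the background subtracted (limma adjusted p = 0.0361 for Cyp27a1 and 0.0112 for Lrp8). The call of Cyp27a1 was lost with a pseudocount of 0.1 TPM (log2 change -3.0). In CLL cells the means were 4.97 TPM of Cyp27a1 and 3.98 TPM of Lrp8, near the mean background of 3.47 TPM there. In non-CLL cells they were 29.2 and 25.4 TPM, beside a mean background of 8.25 TPM. Abcg2, an exporter of urate and foreign compounds, Apod, a lipocalin, and Nceh1, a cholesterol ester hydrolase, were lower too. Their log2 changes were -1.79, -1.74 and -1.33 (limma adjusted p between 0.0369 and 0.0485). These calls were lost with a pseudocount of 0.1 TPM. With 1 library left out their limma adjusted p reached 0.0928, 0.129 and 0.0998. They did not pass under 2 further alternatives. With the background subtracted their log2 changes were -1.96, -1.39 and -1.31 (limma adjusted p = 0.0953, 0.255 and 0.103). With mouse as a block they were -1.67, -1.58 and -1.04 (limma adjusted p = 0.0556, 0.0595 and 0.0586). The block leaves out CLL library 1, which has no partner, and leaving out that library without a block gave the same log2 changes. Lower in CLL cells were also 5 of 8 dendritic cell markers and 3 of 8 T cell markers, the direction of Pltp, Cyp27a1 and Lrp8. The part of such cells, and that of the isolation of CLL cells, was not tested.

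Between CLL and aged wild-type cells, none of 73 tested genes was higher and 1, Pltp, was lower in CLL cells, while 2.94% of all genes were higher and 0.604% lower, 3.54% in all. At an unadjusted p under 0.05, 32 of the 73 were higher and 3 lower, beside the shift of 0.93 in the median of all genes, and with the background subtracted 2 of 45 tested genes were higher and 4 lower. Pltp had 8.35 ± 4.25 TPM in CLL cells (SD, n = 5) and 25.0 ± 1.78 TPM in wild-type cells (n = 3), with a log2 change of -1.62 (SE 0.49, limma adjusted p = 0.0481). With the background subtracted the log2 change was -2.31 (limma adjusted p = 0.0578). Pltp also missed the threshold without CLL library 5 or wild-type library 1 or 3, with log2 changes of -1.66 to -1.50 and an adjusted p of up to 0.198. Between non-CLL and aged wild-type cells, 42 of the 77 genes were higher and 2 lower in non-CLL cells, against 55.8% and 1.48% of all genes (57.3% together), and the median log2 change was 1.68, against 1.65 for all genes. With the background subtracted 0 of 55 tested genes passed by limma, with 13 higher and 4 lower at an unadjusted p under 0.05. In a test of genes that reached 20 TPM, 0 of 27 passed, with 5 higher and 2 lower at an unadjusted p under 0.05.

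The 6 largest increases in non-CLL cells, Abca8a, Abca8b, Soat2, Apod, Apoh and Olr1 (log2 changes of 3.22 to 3.27), had mean levels of 11.6 to 13.3 TPM in non-CLL cells, beside a mean background of 8.25 ± 0.868 TPM there (SD, n = 4). The 2 genes that were lower were Cd36 (31.9 ± 10.1 TPM in non-CLL against 179.7 ± 144 TPM in wild-type cells, log2 change -2.23, limma adjusted p = 0.00169) and Soat1 (129.9 ± 27.4 TPM against 256 ± 6.59 TPM, log2 change -1.0, limma adjusted p = 0.00303). With the background subtracted the log2 change was -2.69 for Cd36 (limma adjusted p = 0.0534) and -1.09 for Soat1 (limma adjusted p = 0.0589). CLL and non-CLL cells were set against the same 3 wild-type libraries.

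**Figure D5:**
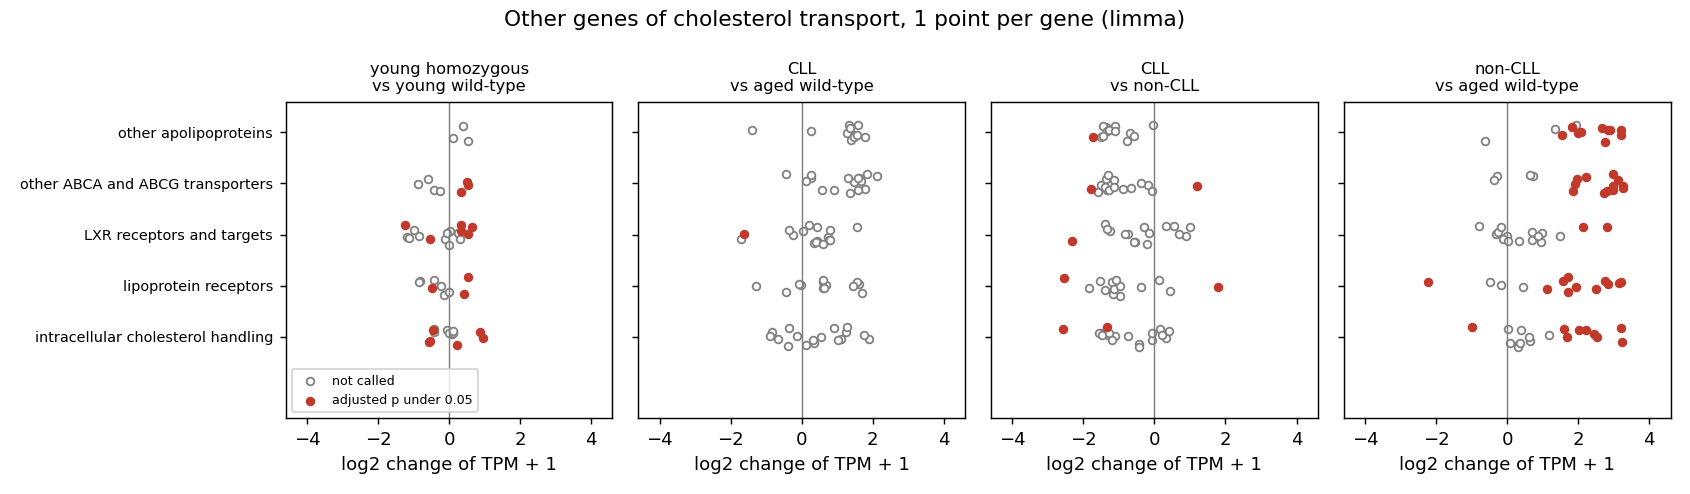
Log2 change of TPM + 1 of the 77 listed genes (those tested) by list in the 4 comparisons, 1 point per gene, with genes at a limma adjusted p under 0.05 filled; the vertical spread within a list has no meaning. Filled points are 12 higher and 6 lower in the first panel, 1 lower in the second, 2 higher and 6 lower in the third, and 42 higher and 2 lower in the fourth, where the median of all genes tested is 1.65.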

How the data were processed

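The authors deposited TPM values (transcript abundance per length and library size, per the labels of the aged samples and the equal column sums) in 2 tables, 1 of 6 young and 1 of 12 aged libraries. The submitters' processing notes list MACS2 2.2.0, Bowtie2 2.3.4.1, STAR 2.4.0.1 and the build mm10 without saying which made these values. What quantifier, annotation and strandedness were used was not given in the sources used here. No read number can be had from TPM, so depth is unknown and no counting interval is given. Of the series' 30 samples, the 12 chromatin assays were not used; 3 of them have a title and genotype that disagree. Rows left out were 26 young and 25 aged ones whose names had become dates and 887 unnamed young ones (4.44% to 9.36% of TPM).

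Values were taken as log2(TPM + 1), a scale that understates changes of low genes. A gene was tested if the number of libraries with 1 TPM or more reached the size of the smaller group. Each comparison was fitted on its own groups by limma 3.58.1 under R 4.3.3 (moderated, trend, robust, two-sided) with Benjamini-Hochberg adjustment over all genes, and an adjusted p under 0.05 is called. The procedure was tested on simulated data. These had no background that differed between groups and no shift of the whole table, so they cannot show how the test behaves with either. The SE of the 5 genes comes from the spread within groups. The members, lists, tests and alternatives were chosen with earlier results of these data known.

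Named were the 5 genes, per comparison up to 6 called pathway genes per direction with the largest log2 change, 8 defining macrophage genes, the highest gene of every other marker list, and for each of the 5 genes the 3 with the highest Pearson r among those with a mean of at least 5 TPM; 2 genes that this rule names are not reported here. Neighbouring genes lie within 60 kb of the cluster. Coordinates and promoter windows are from RefSeq (GRCm38.p6), matched by symbol.

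CLL and non-CLL libraries with the same number carry the same genotype and, by the series' description, come from the same mice. They were compared within mice for the 5 genes, while the tests were fitted without a block, the block being an alternative; their deviations from the group means correlated at -0.03, 0.03, 0.08 and 0.13 for numbers 2, 4, 5 and 6. Alternatives were a pseudocount of 0.1 TPM, no filter, a filter of 20 TPM, median-ratio rescaling, subtraction of the olfactory receptor median, one fit of all aged groups, a replicate block, and leaving out libraries.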

Additional observations from a re-analysis of the deposited data

Results flagged for a closer look

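For the genes named, 54 sets of 4 or 5 libraries of a group were examined for a library far from the others, a search that chance alone would flag in about 1 of 20, and 2 were found. Abca8a reached 11.4 TPM in CLL library 6, against 3.84 TPM in the next CLL library. Apoh reached 17.2 TPM in non-CLL library 6, against 10.9 TPM in the next non-CLL library. The olfactory receptor median was 9.66 TPM in CLL library 6 and 9.24 TPM in non-CLL library 6. None of the 5 cholesterol export genes had such a library.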

How the results depend on the processing

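Of the values recomputed for the 5 genes, 262 moved by less than the spread between libraries, 4 moved further and 9 changed sign. Without young wild-type libraries 1 and 2 the young log2 change was 0.06 for Apoe, 0.56 for Apoc2 and -0.15 for Apoc1, and with the background subtracted that of Apoc1 was 0.04 for CLL against non-CLL and -0.02 for non-CLL against wild-type cells. With the background subtracted Apoc1 gave 0.03 for CLL against wild-type cells, and Abca1 gave 0.20 for CLL against non-CLL cells. With 1 library left out Abca1 ranged from -0.64 (without aged wild-type library 2) to 0.92 (without wild-type library 1) for CLL and from -0.42 to 1.15 (without the same libraries) for non-CLL against wild-type cells. Abcg1 ranged from -0.05 (without CLL library 5) to 0.33 (without CLL library 4) for CLL against non-CLL cells, and was -0.11 in young cells when rescaled. With a pseudocount of 0.1 TPM, Apoc1 gave 3.13 for CLL and 4.42 for non-CLL against wild-type cells. Of the young pathway calls (18), 8 were left without wild-type libraries 1 and 2, 27 were made with a replicate block, and 11 (without homozygous library 3) to 29 (without wild-type library 3) when 1 library was left out. The young same-numbered libraries correlated at -0.10, 0.24 and 0.32. The best correlations of homozygous libraries 1 to 3 with a wild-type library of another number were 0.09, 0.21 and -0.11. These values do not settle whether the numbers pair the young libraries. For CLL against aged wild-type cells the 1 call became 28 with a pseudocount of 0.1 TPM, 25 with all aged groups in one fit, and 0 with no filter, at 20 TPM, rescaled, or background subtracted; with 1 library left out it ranged from 0 (without CLL library 5) to 29 (without CLL library 4), with 3 without CLL library 2 and 14 to 18 without CLL library 1 or 6 or wild-type library 2. For CLL against non-CLL cells the 8 calls became 3 with a pseudocount of 0.1 TPM, 3 at 20 TPM, 5 background subtracted, 17 in one fit of all groups and 6 with the replicate block; they ranged from 4 (without CLL library 4 or non-CLL library 4), with 5 without non-CLL library 2 or 5, to 47 without CLL library 6, the CLL library with the highest background. For non-CLL against wild-type cells the 44 calls became 0 at 20 TPM and 0 background subtracted, and were 43 to 48 with 1 library left out. The cause of these moves was not tested. For the comparisons with aged wild-type cells alone, no paired analysis was possible because the numbers of aged wild-type libraries refer to other mice than those of the CLL and non-CLL libraries. Of the recomputed tests of named pathway genes, 308 kept their call and 71 lost it. The number of libraries limits the precision, and depth is unknown.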
